A study of Mus musculus with 12 samples.

Results

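The 10 genes described here encode enzymes of serine, one-carbon and asparagine synthesis: Phgdh, Psat1, Psph, Asns, Mthfd2, Mthfd1l, Aldh1l2, Shmt2, Shmt1 and Mthfd1. They were taken by symbol from the 49315 genes of the count files, all 10 were found, and all 10 were among the 15476 genes that passed the filter on low counts. The members were chosen around Mthfd2, with earlier results of these data known. Mthfd2 was chosen by its counts in these libraries, which an earlier look had found higher on the Western than on the control diet after pregnancy. Values from that contrast are therefore given as a description without a test. So are those of Mthfd2 in every comparison that holds 1 of those 2 postpartum groups, and members that passed a test are there counted among the 9 others. Asns lies outside the folate path of Mthfd2. Tests of the 9 others that use a postpartum group share libraries with that contrast and are not independent of the choice.

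RNA was sequenced from whole heart tissue of wild-type female C57BL/6J mice, a common inbred strain, in 12 libraries, 3 in each of 4 groups. Control diet nonpregnant females ate a diet with 10% of its energy from fat. Control diet postpartum females ate the same diet and were sampled on day 1 after delivery. Western diet nonpregnant and Western diet postpartum females matched these but ate a diet with 45% of energy from fat and 17% from sucrose. Feeding lasted 15 weeks before breeding, and all mice were aged 27 to 29 weeks. The labels do not say that the 3 libraries of a group came from 3 separate mice, so p-values measure the spread between libraries, which may be technical. The contrasts answer how pregnancy and diet, alone and together, relate to the heart's transcripts.

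Serine is made from the glycolytic intermediate 3-phosphoglycerate by PHGDH, PSAT1 and PSPH in turn. SHMT2 in mitochondria and SHMT1 in the cytosol move one carbon unit from serine to tetrahydrofolate and leave glycine. In mitochondria MTHFD2 and MTHFD1L carry that unit on to formate and ALDH1L2 oxidises it to carbon dioxide, while the cytosolic MTHFD1 uses formate for purine and thymidylate synthesis. ASNS makes asparagine from aspartate and glutamine. Several of these enzymes are textbook targets of ATF4, a transcription factor whose translation rises with amino acid shortage or mitochondrial stress. The members were not sorted by that trait here. MTHFD2 is known for low levels in most adult tissues.

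By group mean, Mthfd2, Asns, Phgdh and Psat1 were lowest in control diet nonpregnant hearts, intermediate after pregnancy alone or Western diet alone, and highest after both. Between the ends of that series Mthfd2 stood 4.73-fold higher, a description since such values chose it. Phgdh rose 2.79-fold, Asns 2.48-fold and Psat1 1.83-fold, the last with a call that was lost in 8 of 15 alternatives. Shmt2 and Mthfd1, the most abundant of the 10 per transcript length, did not pass the test between the same groups, and none of the 10 fell. The 3 that rose are the first and second enzymes of serine synthesis and asparagine synthetase. In whole tissue, more cells of a type that makes a transcript and more transcript per cell cannot be told apart.

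Library totals ran from 22754591 to 29492416 counts, and a gene with no counts could lie at up to 0.102 to 0.132 CPM (counts scaled to a common library size; the limit is 3 counts and covers counting error only). Mitochondrial transcripts took 19.2% to 21.5% of counts. The 8 cardiomyocyte markers summed to 68304 to 81540 CPM in every library. Control diet postpartum replicate 3 also held transcripts of fat: the brown fat gene Ucp1 stood at 73.1 CPM there and at no more than 0.545 in the other libraries. Control diet nonpregnant replicate 1 stood apart from its group: a chi-square of its counts per degree of freedom was 16.2 and 15.8 against replicates 2 and 3, which differed by 3.88. Western diet postpartum replicate 2, which held the highest Mthfd2, stood apart too, at 13.5 and 12.3 against replicates 1 and 3, which differed by 6.75. Without it, genes called over the whole table went from 91 to 472 for pregnancy on the Western diet and from 406 to 764 for both factors. Mthfd2 was then higher by 0.88 and 2.04 in these contrasts on the log2 scale, and Asns by 0.55 and 1.27.

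The windows below are the 250 bases before the RefSeq start of Asns, Phgdh and Mthfd2, the 3 members whose Western diet postpartum libraries lay above all others. They come from the RefSeq promoter table of GRCm38.p6, which held 9 of the 10 genes, and are written 5′ to 3′ on each gene's own strand. Capitals mark matches on either strand to TGATGNAA, the core of the element that ATF4 binds with C/EBP partners, or to TGACNNNGC, the core of the antioxidant response element. CACGTG, the E-box, was searched too.
Asns, chr6:7693210-7693459, minus strand: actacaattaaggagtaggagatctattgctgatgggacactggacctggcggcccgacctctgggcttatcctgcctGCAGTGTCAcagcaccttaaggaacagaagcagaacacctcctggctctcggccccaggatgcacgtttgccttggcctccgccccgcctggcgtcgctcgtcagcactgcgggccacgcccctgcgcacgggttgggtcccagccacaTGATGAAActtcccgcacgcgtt
Phgdh, chr3:98339970-98340219, minus strand: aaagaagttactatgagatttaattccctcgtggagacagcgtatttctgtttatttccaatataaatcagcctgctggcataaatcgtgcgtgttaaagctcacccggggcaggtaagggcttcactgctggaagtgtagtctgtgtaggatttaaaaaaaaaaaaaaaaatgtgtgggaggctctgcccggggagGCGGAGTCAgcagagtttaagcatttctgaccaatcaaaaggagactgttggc
Mthfd2, chr6:83317605-83317854, minus strand: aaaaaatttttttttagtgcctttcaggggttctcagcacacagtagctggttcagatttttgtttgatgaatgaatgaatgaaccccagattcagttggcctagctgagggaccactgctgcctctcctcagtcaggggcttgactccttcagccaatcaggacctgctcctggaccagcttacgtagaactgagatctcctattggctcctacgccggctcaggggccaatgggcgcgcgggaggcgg
The Asns window holds TGATGAAA from 23 to 16 bases before the start, and GCAGTGTCA, a TGACNNNGC match on the other strand, from 172 to 164 bases before it. The Phgdh window holds GCGGAGTCA, likewise on the other strand, from 53 to 45 bases before the start. The Mthfd2 window holds none of the 3 motifs. Its start is that of 1 annotated transcript and lies inside the gene interval given below, which reaches upstream beyond the window. Sequence there was not searched. The starts used for Asns and Phgdh also lie inside their gene intervals. The Asns interval covers the TGATGAAA match but not GCAGTGTCA, and the Phgdh interval stops short of GCGGAGTCA. Of 27025 genes in the table, 3.91% hold TGATGNAA in such a window, 11.5% hold TGACNNNGC and 6.86% hold CACGTG. Of the 9 members in it, 1, 2 and 0 do. A match describes letters in this window and does not show binding.

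**Figure D1:**
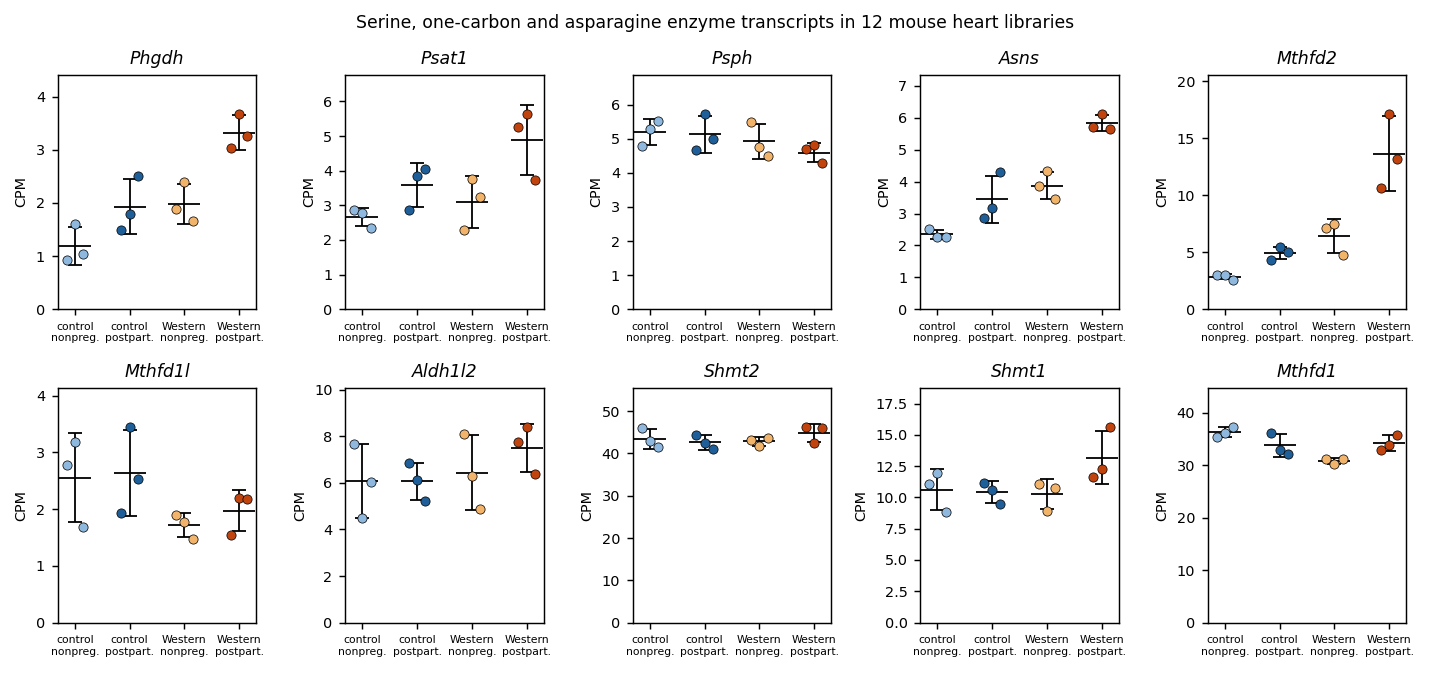
CPM (vertical axes, each from 0) of the 10 enzyme transcripts in the 12 heart libraries. Points are libraries, the long bar is the group mean and whiskers are the SD (n = 3). Mthfd2, Asns and Phgdh are highest in all 3 Western diet postpartum libraries, while Shmt2 and Mthfd1 stay within 40.9 to 46.3 and 30.2 to 37.3.

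Phgdh (ENSMUSG00000053398, chr3:98313170-98339990, minus strand) encodes the first enzyme of serine synthesis. It stood at 0.928, 1.60 and 1.04 CPM in the control diet nonpregnant libraries and at 1.5, 1.78 and 2.5 in the control diet postpartum ones. On the Western diet it stood at 1.89, 2.39 and 1.65 CPM in nonpregnant hearts and at 3.02, 3.68 and 3.25 after pregnancy. The Western diet postpartum libraries lie above the other 9, and the 2 middle groups overlap each other. These values rest on 23 to 84 counts per library. From control diet nonpregnant to Western diet postpartum hearts Phgdh rose from 1.19 ± 0.357 to 3.32 ± 0.332 CPM (SD, n = 3; edgeR log2 fold change 1.48, SE 0.25, adjusted p = 0.0104).

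Psat1 (ENSMUSG00000024640, chr19:15904678-15947337, minus strand), the aminotransferase of the second step, stood at 2.86, 2.77 and 2.36 CPM in control diet nonpregnant libraries and at 2.86, 3.84 and 4.06 after pregnancy. On the Western diet it stood at 2.28, 3.75 and 3.24 CPM in nonpregnant hearts and at 5.27, 5.65 and 3.72 after pregnancy. Of the Western diet postpartum libraries, replicates 1 and 2 lie above the other 9 and replicate 3 lies among the middle groups. Between the ends Psat1 rose from 2.66 ± 0.266 to 4.88 ± 1.02 CPM (SD, n = 3; edgeR log2 fold change 0.87, SE 0.21, adjusted p = 0.0467). The call was lost in 8 of 15 alternatives with values of 0.75 to 0.93, at edgeR adjusted p = 0.0623 without control diet nonpregnant replicate 1, 0.125 without replicate 2 and 0.131 without replicate 3. It was also lost without Western diet postpartum replicate 1 (edgeR adjusted p = 0.173) or 2 (0.0848).

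Psph (ENSMUSG00000029446, chr5:129765558-129787449, minus strand), the phosphatase that ends the pathway, did not share that pattern. Its group means ran from 5.21 ± 0.384 CPM in control diet nonpregnant to 4.6 ± 0.281 in Western diet postpartum hearts (SD, n = 3), and all 4 groups overlap. The edgeR log2 difference between those groups was -0.18 (95% interval -0.45 to 0.10, adjusted p = 0.511). The gene overlaps Cct6a on the opposite strand, which holds 1904 to 2667 counts per library, and no source used here gives the strand setting of the counting. Counts of the neighbour may therefore be among those of Psph.

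Asns (ENSMUSG00000029752, chr6:7675169-7693254, minus strand), whose window above holds the TGATGNAA match, stood at 2.5, 2.27 and 2.27 CPM in control diet nonpregnant libraries. It stood at 2.86, 3.18 and 4.29 CPM in control diet postpartum, 3.86, 4.32 and 3.45 in Western diet nonpregnant libraries, and at 5.72, 6.13 and 5.65 in those of both. The control diet nonpregnant libraries lie below all others, the Western diet postpartum libraries lie above all others, and the 2 middle groups overlap. Between the ends Asns rose from 2.35 ± 0.133 to 5.83 ± 0.259 CPM (SD, n = 3; edgeR log2 fold change 1.31, SE 0.16, adjusted p = 0.00251), and the call held in all 15 alternatives, with values of 1.27 to 1.36.

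Mthfd2 (ENSMUSG00000005667, chr6:83305691-83325908, minus strand) showed the widest range of the 10. It encodes the mitochondrial dehydrogenase and cyclohydrolase that opens the path from methylene-tetrahydrofolate to formate. In control diet nonpregnant libraries it stood at 3.0, 3.03 and 2.59 CPM and in control diet postpartum libraries at 4.32, 5.43 and 5.03. In Western diet nonpregnant libraries it stood at 7.13, 7.46 and 4.75 CPM and in Western diet postpartum libraries at 10.6, 17.2 and 13.1. The lowest and the highest group each lie apart from the rest. The 2 middle groups overlap through Western diet nonpregnant replicate 3, so their order is not resolved. Group means were 2.87 ± 0.246, 4.93 ± 0.559, 6.45 ± 1.48 and 13.6 ± 3.30 CPM (SD, n = 3), from 57 to 392 counts per library. The last was higher than the first by 2.24 on the log2 scale (SE 0.20), and by 2.04 to 2.39 in 15 alternatives.

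Libraries of 1 group above all 9 others are not common. Of the 15476 genes tested, 2.33% had all Western diet postpartum libraries above the other 9, and 3 of the 10 members did: Mthfd2, Asns and Phgdh. The control diet nonpregnant libraries lay below the other 9 for 1.01% of genes and for 2 members. Both held for 14 genes, 0.0905% of those tested, and Mthfd2 and Asns are 2 of them. The set was drawn up with part of this pattern known, so the counts describe it.

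The other mitochondrial members moved less. Mthfd1l (ENSMUSG00000040675, chr10:3973118-4167081, plus strand), which releases formate, had group means of 2.55 ± 0.784, 2.64 ± 0.761, 1.72 ± 0.213 and 1.97 ± 0.366 CPM (SD, n = 3; control nonpregnant, control postpartum, Western nonpregnant, Western postpartum). Its control libraries spread from 1.68 to 3.45 CPM and overlap both Western diet groups. Aldh1l2 (ENSMUSG00000020256, chr10:83487450-83534140, minus strand), the mitochondrial formyl-tetrahydrofolate dehydrogenase, ran from 4.5 to 8.41 CPM with all groups overlapping, and its promoter is the one missing from the table. Shmt2 (ENSMUSG00000025403, chr10:127517123-127522444, minus strand), which feeds the arm from serine, kept to 40.9 to 46.3 CPM. Its log2 difference between the end groups was 0.05 (95% interval -0.08 to 0.18), a range that leaves out the size seen for Mthfd2 and for each of the 3 genes that rose. Aldh1l2 overlaps D10Wsu102e on the opposite strand and Shmt2 overlaps Ndufa4l2, at 234 to 374 and 260 to 509 counts per library, with the same reservation as for Psph.

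Of the cytosolic members, Mthfd1 (ENSMUSG00000021048, chr12:76255232-76319820, plus strand) is a single protein with the dehydrogenase, cyclohydrolase and formate-joining activities. It stood at 35.4, 36.2 and 37.3 CPM in control diet nonpregnant libraries and at 31.3, 30.2 and 31.2 in Western diet nonpregnant ones. The groups do not overlap, with a log2 difference of -0.23 (SE 0.06) that did not pass (edgeR adjusted p = 0.261). After pregnancy the diets overlapped, at 36.2, 33.0 and 32.2 CPM on the control and 32.9, 33.8 and 35.8 on the Western diet. Shmt1 (ENSMUSG00000020534, chr11:60788104-60811718, minus strand), the cytosolic hydroxymethyltransferase, stood at 11.6, 12.3 and 15.6 CPM in Western diet postpartum libraries. Its other 9 libraries lay at 8.80 to 12, so replicate 1 of that group lies among them. Shmt1 overlaps Smcr8 on the opposite strand, which holds 532 to 851 counts per library.

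Levels can be compared between genes only per transcript length, as RPKM (CPM per kilobase of exon). Averaged over the 12 libraries Shmt2 stood highest at 18.9 RPKM and Mthfd1 followed at 10.2. Shmt1 stood at 2.86 RPKM, Mthfd2 at 2.0, Asns at 1.42 and Psph at 1.1. Aldh1l2 (0.869), Phgdh (0.846), Psat1 (0.836) and Mthfd1l (0.501 RPKM) were the lowest, and the library ranges of all 4 overlap. Mean levels hide the shift of Mthfd2, which went from 0.823 ± 0.0706 RPKM in control diet nonpregnant to 3.91 ± 0.946 in Western diet postpartum hearts (SD, n = 3). Shmt1 stood at 2.73 ± 0.421 and 3.39 ± 0.553 RPKM in the same groups (SD, n = 3), so Mthfd2 lay well below it in the first and within the spread of it in the last.

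Mthfd2l, a close relative of Mthfd2 with the same mitochondrial activities and outside the 10, did not show the pattern. Its level was 0.932, 0.855, 0.882 and 0.910 RPKM in the 4 groups, in the order used above, with an edgeR log2 difference of -0.03 (SE 0.13, adjusted p = 0.917) between the end groups. The ratio of Mthfd2 to Mthfd2l in RPKM was 0.884 ± 0.0747 in control diet nonpregnant, 1.67 ± 0.305 in control diet postpartum, 2.09 ± 0.305 on the Western diet alone and 4.30 ± 1.00 after both (SD, n = 3). Its ratio to Mthfd1 went from 0.0755 to 0.380 over the same ends. The mitochondrial to cytosolic ratio Shmt2 to Shmt1 was 6.99 ± 0.954, 6.91 ± 0.337, 7.10 ± 0.705 and 5.83 ± 0.865 in the 4 groups, which overlap. Reads shared between relatives such as Mthfd2 and Mthfd2l could shift single values.

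**Figure D2:**
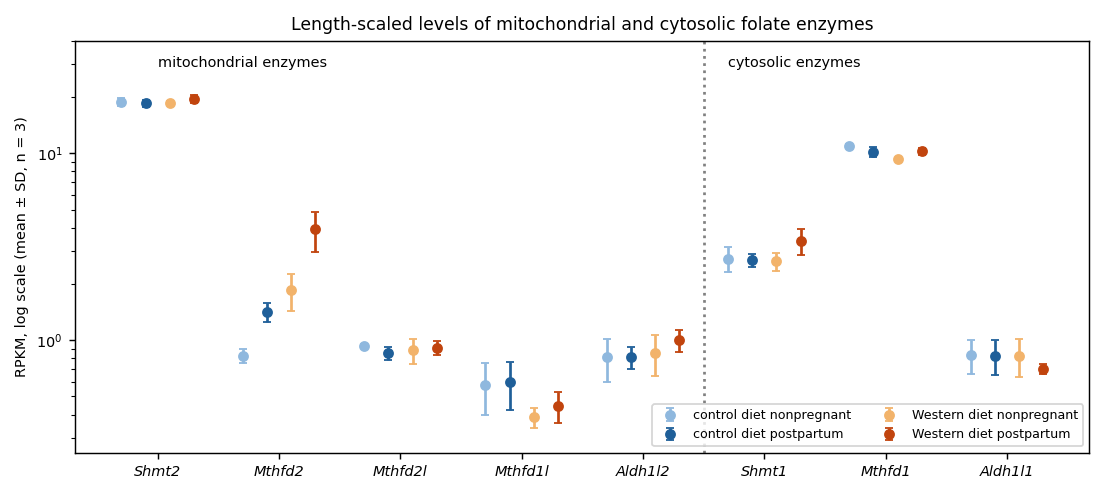
Level per transcript length (RPKM, log axis) of the mitochondrial folate enzymes and their cytosolic counterparts in the 4 groups, as mean ± SD of 3 libraries. Mthfd2 climbs from 0.823 to 3.91 RPKM, while Mthfd2l stays between 0.855 and 0.932 and Shmt2 near 18.9.

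Pregnancy on the control diet gave no call among the 9 members other than Mthfd2. EdgeR, DESeq2 and limma-voom each called 0, and 2 had an unadjusted edgeR p under 0.05. Of all genes tested, edgeR called 0.239% (0.207% higher and 0.0323% lower), DESeq2 1.24% and limma-voom 0.233%, and 12.5% had such a p. Mthfd2 was higher by 0.77 (SE 0.21), with every postpartum above every nonpregnant library. Phgdh was higher by 0.71 (SE 0.25), Asns by 0.55 (SE 0.17) and Psat1 by 0.42 (SE 0.21), at edgeR adjusted p = 0.277, 0.197 and 0.444. Groups did not overlap for 2 of the 9, Asns and Psat1, both higher after pregnancy, where 8.12% of all genes were higher and 8.96% lower without overlap; for Psat1 the nearest libraries were at 2.857 and 2.860 CPM. The other 6 members differed by -0.10 to 0.04.

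The library with fat transcripts held the highest Phgdh, Psat1 and Asns of its group. Without it the log2 differences were 0.47, 0.32 and 0.36, against 0.76 for Mthfd2. Without it and control diet nonpregnant replicate 1 they were 0.31, 0.38 and 0.41, against 0.79, and Aldh1l2 went from -0.01 to 0.31. Markers of other cells were higher in the same contrast, in which edgeR called 0.207% of all genes higher. The 8 fibroblast markers summed to 668 to 913 CPM in nonpregnant and 1017 to 1262 in postpartum hearts, with 2 called higher by edgeR. The 8 macrophage markers summed to 227 to 295 and 314 to 346 CPM, with 3 called higher. The part of these cells and of fat tissue in the enzyme values was not tested.

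Pregnancy on the Western diet gave no edgeR call among the 9 others, where edgeR called 0.588% of all genes (0.355% higher and 0.233% lower). DESeq2 called 1 of the 9, Asns (adjusted p = 0.0444), and limma-voom 0, against 2.97% and 0.491% of genes. Mthfd2 stood at 6.45 ± 1.48 CPM in nonpregnant and 13.6 ± 3.30 in postpartum hearts (SD, n = 3), a 2.12-fold difference (log2 1.08, SE 0.18). Phgdh (0.75, SE 0.23), Psat1 (0.65, SE 0.21), Asns (0.59, SE 0.15) and Shmt1 (0.36, SE 0.14) were higher at edgeR adjusted p = 0.158, 0.168, 0.102 and 0.241. An unadjusted edgeR p under 0.05 was found for 5 of the 9 and 14.7% of genes. Groups did not overlap for 4 of the 9, all higher, where 10.1% of genes were higher and 9.51% lower without overlap. These were Phgdh, Asns, Shmt1 and Mthfd1, the last with its nearest libraries at 31.3 CPM in nonpregnant and 32.9 in postpartum hearts. Psat1 overlapped, at 3.75 and 3.72 CPM. None of the fibroblast, macrophage, endothelial and cardiomyocyte markers was called by edgeR or limma-voom in this contrast. DESeq2 called 1 of 8 endothelial and 1 of 8 cardiomyocyte markers, against 2.97% of genes.

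The Western diet without pregnancy gave no edgeR or limma-voom call: both called 0 of 10, and DESeq2 called 1, Mthfd2. Of the 10, 5 had an unadjusted edgeR p under 0.05. Over all genes edgeR called 0.0582% (0.0452% higher and 0.0129% lower), DESeq2 0.943% and limma-voom 0.0388%, and 9.58% had such a p. Mthfd2 was higher by 1.16 (SE 0.21, edgeR adjusted p = 0.0847; DESeq2 adjusted p = 0.000102), a 2.23-fold difference (95% interval 1.64 to 3.04) without overlap. Asns was higher by 0.72 (SE 0.17) and Phgdh by 0.74 (SE 0.26), at edgeR adjusted p = 0.185 and 0.372, also without overlap. For Phgdh the nearest libraries were at 1.597 CPM on the control and 1.655 on the Western diet. Groups did not overlap for 3 members that were higher and 1 that was lower, Mthfd1, against 6.92% and 7.84% of genes. Mthfd1l stood lower by a log2 difference of -0.58 (SE 0.26, edgeR adjusted p = 0.509). Psat1, Psph, Shmt1, Shmt2 and Aldh1l2 differed by -0.08 to 0.22. Without control diet nonpregnant replicate 1 Aldh1l2 went from 0.07 to 0.29 and Phgdh to 0.58. Cardiomyocyte markers summed to 71927 to 81540 CPM on the control and 68304 to 71070 on the Western diet. Fibroblast markers summed to 668 to 913 and 916 to 952 CPM, and those of proliferating cells to 57.2 to 68.2 and 44.7 to 51.1. Macrophage and endothelial sums overlapped. EdgeR and limma-voom called 0 of these markers. DESeq2 called 2 cardiomyocyte, 1 endothelial and 1 proliferating cell marker. Their part in the enzyme values was not tested.

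Western against control diet after pregnancy is the contrast that chose Mthfd2, and its values are listed as they stand. Mthfd2 differed by 1.47 (SE 0.19), Phgdh by 0.78 (SE 0.23) and Asns by 0.76 (SE 0.15). Psat1 differed by 0.44 (SE 0.20), Shmt1 by 0.34 (SE 0.14), Aldh1l2 by 0.31 (SE 0.20), Mthfd1l by -0.41 (SE 0.26) and Psph by -0.16 (SE 0.13). Of the 10, 2 (Mthfd2 and Asns) lay past the edgeR threshold that 0.879% of all genes passed, and nothing is read from that count. Without the library with fat transcripts the differences were 0.95 for Asns and 1.01 for Phgdh. The difference between the diet effects after and without pregnancy was 0.31 (SE 0.28) for Mthfd2, 0.04 (SE 0.23) for Asns, 0.04 (SE 0.35) for Phgdh and 0.25 (SE 0.09) for Mthfd1. These too hold the contrast that chose the set and carry no test here; edgeR called 0 of the 15476 genes in that comparison, with 8.98% at an unadjusted p under 0.05, DESeq2 43 (1.06% of those it tested) and limma-voom 0.

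**Figure D3:**
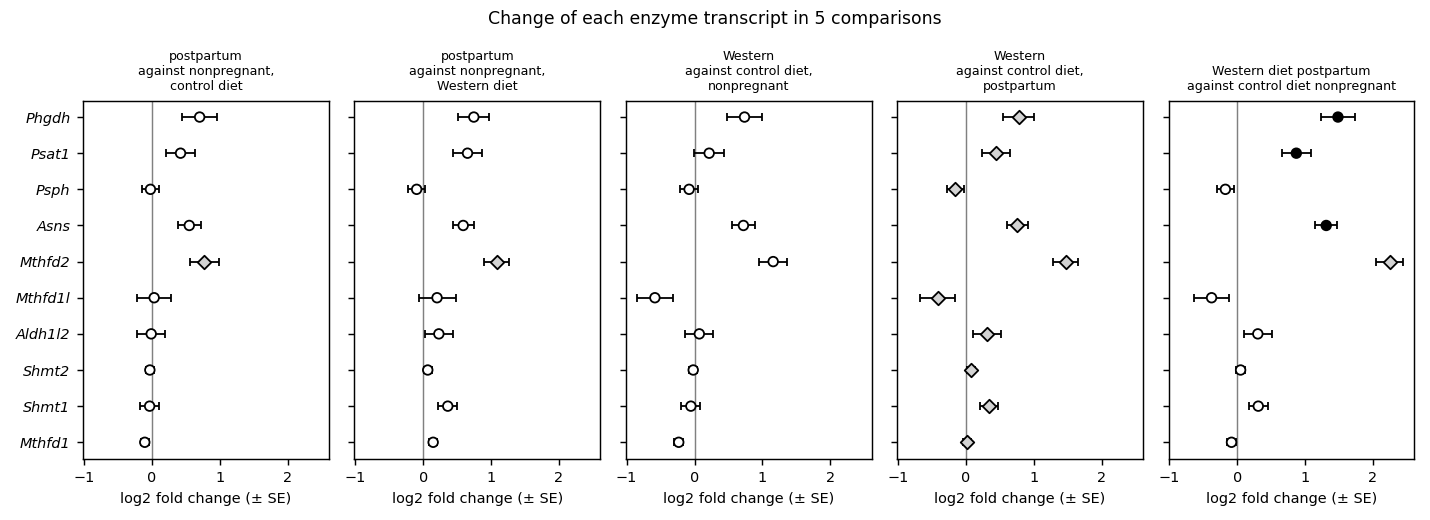
Log2 fold change ± SE (horizontal axes) of each enzyme transcript in 5 comparisons. Circles were tested, filled ones passed the edgeR threshold, and grey diamonds are descriptions that share libraries with the choice of Mthfd2. In the last panel Phgdh (1.48), Asns (1.31) and Psat1 (0.87) are filled, Mthfd2 is at 2.24 and Shmt2 and Mthfd1 sit near 0.

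Western diet postpartum against control diet nonpregnant hearts, the contrast of both factors, called 3 of the 9 others higher and 0 lower, where 1.45% and 1.18% of all genes were called, 2.62% in all. DESeq2 called 3 of the 9 and limma-voom 2, against 5.46% and 2.16% of genes. The 3 were also those without overlap, all higher, where 10.3% of genes were higher and 9.89% lower. Of the 9, 4 had an unadjusted edgeR p under 0.05, against 18.2% of genes, and none of the 4 was lower. The 95% intervals of the fold changes were 1.93 to 4.03 for Phgdh, 1.94 to 3.16 for Asns and 1.33 to 2.5 for Psat1. Shmt1 (0.31, edgeR adjusted p = 0.254), Aldh1l2 (0.30, 0.479), Mthfd1 (-0.09, 0.510) and Mthfd1l (-0.38, 0.486) did not pass. The median of the 9 was 0.30 against 0.00 for all genes. The contrasts share groups, so a gene that is low in control diet nonpregnant libraries is higher in each comparison with them.

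Without control diet nonpregnant replicate 1 and the library with fat transcripts, Asns (1.36, edgeR adjusted p = 0.00395) and Phgdh (1.32, 0.0217) were called in this contrast. Psat1 was at 0.92 (edgeR adjusted p = 0.0678), Mthfd2 at 2.28 and Aldh1l2 at 0.52 (0.199). Markers of other cells moved in the same contrast, in which edgeR called 1.45% of all genes higher and 1.18% lower. The endothelial list summed to 827 to 876 CPM in control diet nonpregnant and 909 to 1048 in Western diet postpartum libraries, with 2 of 8 genes called higher. For the macrophage list the ranges were 227 to 295 and 295 to 338 CPM, with 1 of 8 called higher. The fibroblast list spanned 668 to 913 and 891 to 1002 CPM, with 1 of 8 higher, and the cardiomyocyte list 71927 to 81540 and 71103 to 71753, with 1 of 8 lower. The white fat list ran from 468 to 579 and from 679 to 749 CPM, carried by Fabp4, the 1 of 6 tested genes called higher, which endothelium also makes; its fat-defining gene Adipoq stood at or below 0.454 CPM in these libraries. The list of proliferating cells summed to 57.2 to 68.2 and 44.4 to 49.8 CPM, a lower sum that holds Cenpf, the 1 of 8 called and lower, while the median log2 difference of the 8 was 0.91. The part of these cells in the enzyme values was not tested.

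The genes around the enzymes were followed as lists. In the contrast of both factors edgeR called 2.62% of all genes, DESeq2 5.46% and limma-voom 2.16%. There 18.2% of all genes had an unadjusted edgeR p under 0.05. For pregnancy on the Western diet they called 0.588%, 2.97% and 0.491%. The counts of each list stand against these shares. Of 15 tested genes of the folate cycle outside the 10, such as Tyms and Mtr, edgeR, DESeq2 and limma-voom each called 0 in every one of the 4 tested comparisons. In the contrast of both factors 3 of them had an unadjusted p under 0.05 and their median was -0.12. The folate receptor Folr2 was at 0.64 for pregnancy on the control diet (edgeR adjusted p = 0.181). Glycine cleavage and the other uses of serine or glycine gave 0 of 13 with all 3 tools, 1 at an unadjusted p under 0.05, and a median of 0.03. Sptlc2, a subunit of the enzyme that joins serine to palmitate, was at 0.26 (edgeR adjusted p = 0.111), and Gatm, which uses glycine for creatine synthesis, at 0.82 for pregnancy on the control diet (edgeR adjusted p = 0.234). Purine synthesis, which takes up formate carbon, gave 0 of 13 with edgeR, 1 with DESeq2 and 0 with limma-voom, with 5 unadjusted and a median of -0.01. Ppat, its first enzyme, was at -0.37 (SE 0.10, edgeR adjusted p = 0.0671), and Adss2, on the way to AMP, at 0.33 for pregnancy on the control diet (edgeR adjusted p = 0.263). Aspartate, glutamine and proline enzymes gave 0 of 13 with all 3 tools in that contrast, with 3 unadjusted and a median of -0.01. Aldh18a1, which opens proline synthesis, was at 0.34 (edgeR adjusted p = 0.0768). Glul, glutamine synthetase, stood at 461 CPM on the control and 598 on the Western diet after pregnancy.

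Of 10 tested genes of the methionine cycle and transsulfuration 1 fell in that contrast and none rose; DESeq2 called 1 as well and limma-voom 0. Cth, the lyase that makes cysteine from serine-derived cystathionine, fell from 3.27 to 1.68 CPM (log2 -0.95, SE 0.22, edgeR adjusted p = 0.0369). It also fell with pregnancy on the Western diet (-1.05, SE 0.21, edgeR adjusted p = 0.0447), where edgeR and DESeq2 called 1 of the list and limma-voom 0. The first call was lost in 7 of 15 alternatives (adjusted p up to 0.142), among them leaving out control diet nonpregnant replicate 2 or 3 or any Western diet postpartum library. The second was lost in 8 of 14 (up to 0.190), among them leaving out any 1 of the 6 Western diet libraries. Mat2a, which makes S-adenosylmethionine, was at -0.34 (edgeR adjusted p = 0.111) in the contrast of both factors. Of 15 genes of glycolysis, edgeR called 1, DESeq2 4 and limma-voom 1. The list holds enzymes before 3-phosphoglycerate, the source of serine carbon, and also enzymes after it. By edgeR the hexokinase Hk2 fell (-0.30, SE 0.06, edgeR adjusted p = 0.029), lost in 4 of 15 alternatives (up to 0.103), among them leaving out control diet nonpregnant replicate 2 or 3 or Western diet postpartum replicate 1. The phosphofructokinase Pfkp was at 0.43 for pregnancy on the Western diet (edgeR adjusted p = 0.0896).

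Among 12 tested carriers of serine, glycine and other amino acids 2 rose and none fell by edgeR; DESeq2 called 2 and limma-voom 1. For pregnancy on the Western diet the 3 tools called 1, 2 and 1. Slc7a5, the large neutral amino acid exchanger, rose from 4.80 to 8.03 CPM (0.74, SE 0.14, edgeR adjusted p = 0.0186) and with pregnancy on the Western diet by 0.73 (SE 0.14, edgeR adjusted p = 0.0396). Slc38a2, a carrier of small neutral amino acids, rose from 151 to 228 CPM (0.59, SE 0.14, edgeR adjusted p = 0.0461). The first call was lost in 4 of 15 alternatives, the second in 6 of 14 and that of Slc38a2 in 7 of 15, with values over all alternatives of 0.62 to 0.86, 0.61 to 0.84 and 0.47 to 0.76. The first and the last were lost without control diet nonpregnant replicate 2 or 3 or Western diet postpartum replicate 1 or 3, at edgeR adjusted p up to 0.0918 and 0.177. The second was lost without any Western diet nonpregnant library or Western diet postpartum replicate 1 or 3, at up to 0.185. Of 20 cytosolic aminoacyl-tRNA synthetases, which join amino acids to their tRNAs, edgeR called 2 and DESeq2 4. By edgeR 2 rose: Cars1 (0.33, SE 0.08, edgeR adjusted p = 0.0472) and Mars1 (0.28, SE 0.07, edgeR adjusted p = 0.0461). These calls were lost in 6 and 8 of 15 alternatives, limma-voom among them, which called 0 of the 20. Both were lost without control diet nonpregnant replicate 2 or 3 or Western diet postpartum replicate 1 or 3, and that of Mars1 also without control diet nonpregnant replicate 1, at adjusted p up to 0.191 and 0.194. Eprs1 was at 0.28 for pregnancy on the Western diet (edgeR adjusted p = 0.0831), where edgeR and limma-voom called 0 of the 20 and DESeq2 3.

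ATF4 and its regulators and targets outside the 10 numbered 22 tested genes, of which 3 rose and none fell by edgeR in the contrast of both factors; DESeq2 called 5 and limma-voom 3. Their median was 0.28, and 10 had an unadjusted edgeR p under 0.05, where 2.62% of all genes were called and 18.2% had such a p. Atf5, a related transcription factor, rose from 59.9 to 102 CPM (0.77, SE 0.12, edgeR adjusted p = 0.00598). Eif4ebp1, a repressor of translation, rose from 59.1 to 83.1 CPM (0.49, SE 0.08, edgeR adjusted p = 0.00742), and Cebpg, a partner of ATF4 at its elements, from 26.9 to 34.1 (0.34, SE 0.06, edgeR adjusted p = 0.0106). The calls of Atf5 and Eif4ebp1 held in all 15 alternatives and that of Cebpg in 14 (adjusted p = 0.0563 with only the 2 groups fitted). Atf4 itself stood at 68.1 and 79.7 CPM (0.23, SE 0.08, edgeR adjusted p = 0.133) and the pseudokinase Trib3 at 0.62 (SE 0.15, edgeR adjusted p = 0.0504). Transcript levels of Atf4 do not measure its protein, which is set mainly by translation. Between the diets after pregnancy, the contrast behind the choice of members, Atf4 differed by 0.37, Atf5 by 0.57 and Eif4ebp1 by 0.46. With pregnancy on the Western diet edgeR called 1 of the 22, limma-voom 1 and DESeq2 4. By edgeR it was Eif4ebp1 (0.50, SE 0.08, edgeR adjusted p = 0.0249), lost without any Western diet nonpregnant library or Western diet postpartum replicate 1 or 3, at adjusted p up to 0.0967.

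**Figure D4:**
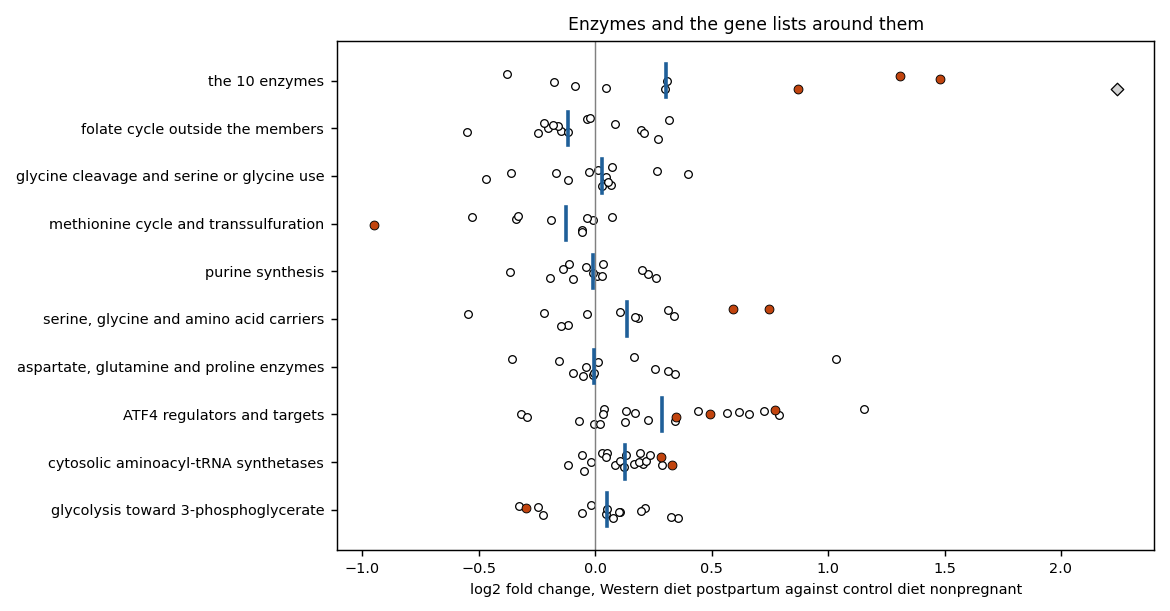
Log2 fold change of each tested gene (points, spread vertically at random) in Western diet postpartum against control diet nonpregnant hearts, for the 10 enzymes and 9 lists around them. Filled points passed the edgeR threshold, the grey diamond is Mthfd2, shown as a description, and blue bars are medians, which are 0.30 for the enzymes, 0.28 for the ATF4 list and -0.12 for the folate cycle outside the 10.

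Profiles over the 12 libraries were compared with that of Mthfd2 by Pearson's r of log2 CPM, as a description. The points share groups and libraries, so r mostly reflects the group means. Of 13348 genes ranked, Asns was first (0.96). Rps28, Rack1 and Rpl10a, which belong to the ribosome, followed at 0.94 each, and Cebpg stood at 0.93. Phgdh was the 11th gene (0.92), Psat1 the 217th (0.74), and Shmt1 and Aldh1l2 stood at 0.52 and 0.51. Shmt2 was at 0.22, Mthfd1l at -0.23, Mthfd1 at -0.35 and Psph at -0.43. With group means removed, r with Mthfd2 was 0.50 for Asns, 0.53 for Phgdh and 0.21 for Psat1. Among the other members it was highest for Mthfd1l, at 0.69, and lowest for Shmt2, at -0.47. It was 0.41 for Psph, which like Mthfd1l had an r below 0 over all libraries.

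The size of the shift differed widely between genes of like profile. Rps28 went from 90.9 ± 2.97 to 114 ± 4.74 CPM (SD, n = 3) between the end groups, a log2 fold change of 0.33 (SE 0.06, edgeR adjusted p = 0.0120), against 2.24 for Mthfd2. Rack1 (0.16, edgeR adjusted p = 0.127) and Rpl10a (0.20, edgeR adjusted p = 0.0551) did not pass. For the mean profile of the 10 enzymes the closest genes outside the set were Atf5 and Mapk3 (0.93 each), then Sec62, Rps28, A4galt and Rps18 (0.91 to 0.92).

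**Figure D5:**
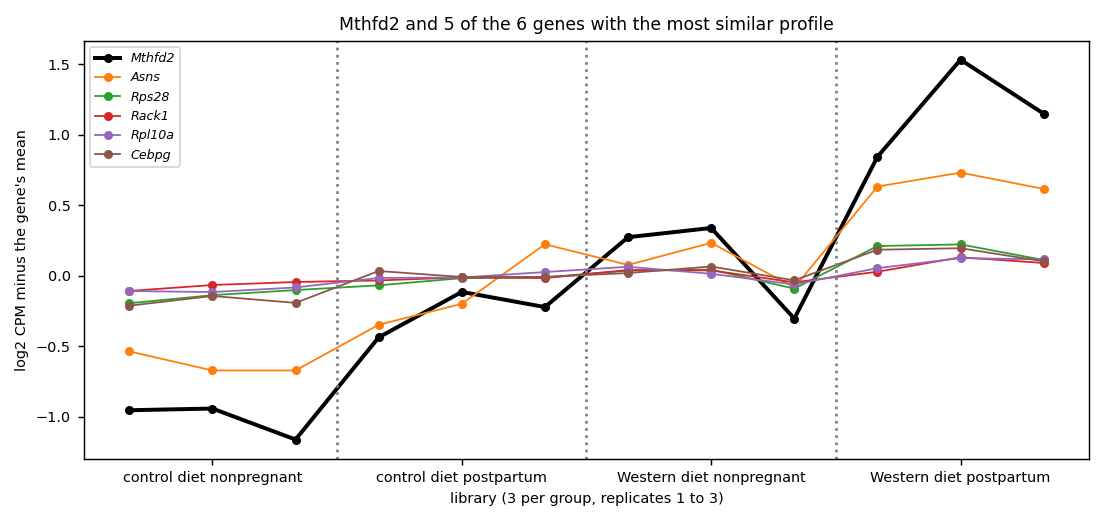
Log2 CPM minus each gene's own mean (vertical axis) in the 12 libraries for Mthfd2 and 5 of the 6 genes with the highest Pearson correlation with it. Mthfd2 (heavy line) and Asns step up between the groups, while the ribosomal genes and Cebpg follow the same order over a much smaller range.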

How the data were processed

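Heart RNA of 12 libraries was measured, grouped by the diet and pregnancy state in their labels. Per the labels, RNA came from the Qiagen RNeasy kit and libraries from the NEBNext Ultra RNA kit. The authors deposited raw read counts per gene; the submitters' processing notes name STAR 2.5.2b, Subread 1.5.2 with featureCounts, FastQC and GRCm38. For the annotation release and the strand setting: not given in the sources used here. Of the 49315 genes, 345 had no symbol in the annotation used here.

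Genes were filtered with edgeR's filterByExpr (minimum count 10, total 15), TMM (trimmed mean of M-values) set the library scaling, and all 12 entered 1 quasi-likelihood fit (edgeR 4.0.16, R 4.3.3; common biological coefficient of variation 9.62%). Contrasts used its two-sided F test with Benjamini-Hochberg adjustment over 15476 genes, threshold 0.05. Log2 fold changes carry an SE equal to the change over the square root of F. The procedure was tested on simulated data. Alternatives were DESeq2 1.42.0, limma-voom (limma 3.58.1), DESeq2's size factors, edgeR's robust option, other filters, fits of the groups compared alone, totals that leave out mitochondrial genes, and each library left out. Leaving out both doubted control libraries together was chosen after seeing the data. Replicate numbers name libraries only. Mthfd2 enters no count of passed tests where a postpartum group is compared, although the planned counts included it. Counts over all 10 enzymes include it and are a description where such a group is compared.

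The members, lists and motifs were chosen with earlier results of these data known. Text names all members, of each list the genes that passed in a comparison and the 2 with the smallest p, and the 6 genes whose log2 CPM (prior count 2) correlated best with Mthfd2 and with the members' mean; some genes these rules name are not reported here. Genes of the lists that did not pass the filter were not tested.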

Additional observations from a re-analysis of the deposited data

How the results depend on the processing

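No paired analysis was possible because the labels give no replicate number shared between groups; the numbers in the titles differ for every library. Of 940 values of the 10 enzymes under alternatives, 887 kept direction and side of the threshold, or for untested contrasts their size within 1 SE. Those of Asns and Phgdh in Western diet postpartum against control diet nonpregnant hearts kept both throughout. The causes of the changes below were not tested.

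Genes called by DESeq2 numbered 184 and 361 for pregnancy on the control and Western diets, 95 and 456 for diet in nonpregnant and postpartum hearts, 779 for both factors and 43 for the interaction. Without a filter on low counts they numbered 744, 933, 454, 1048, 1315 and 506. With only the groups compared they numbered 6, 47, 0, 71 and 136. Without both doubted control libraries they numbered 74 for pregnancy on the control diet, 15 for diet in nonpregnant hearts and 1 for the interaction; the robust option gave 1 for the interaction and the filter of 1 CPM gave 5 for diet in nonpregnant hearts. With 1 library left out the ranges were 0 to 205, 0 to 472, 0 to 4, 30 to 490, 87 to 764 and 0 to 53; the highest of all but the first and the third came without Western diet postpartum replicate 2.

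Counts over all 10 enzymes include Mthfd2, so where a postpartum group is compared they are a description and no count of passed tests. DESeq2 and no filter each called 1 for pregnancy on the control diet. For pregnancy on the Western diet they called 2 and 4, with only those groups 0, and 0 to 1 with a library left out. Of the 9 others DESeq2 called 0 and 1 in these contrasts, against 1.24% and 2.97% of all genes. For diet in nonpregnant hearts DESeq2 called 1 of the 10 and 0.943% of genes, and no filter called 2 of the 10. Over all genes, no filter called 744 and 933 for pregnancy on the control and Western diets, against 37 and 91 in the main fit. For diet in nonpregnant hearts it called 454, against 9. For diet in postpartum hearts a fit of only those groups called 1, and 1 to 2 were called with a library left out. Over all genes, fits of only the groups compared called 47 for pregnancy on the Western diet and 71 for diet in postpartum hearts. Shares of all genes are not given for the settings without a filter or with only those groups, so nothing is read from their counts of enzymes.

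In the tested contrasts directions reversed for 5 enzymes, where the value from all libraries lay between -0.05 and 0.07 on the log2 scale. Without both doubted libraries, for pregnancy on the control diet, Aldh1l2 was at 0.31, Shmt1 at 0.0714 and Shmt2 at 0.048, and for diet in nonpregnant hearts Shmt2 was at 0.030; limma-voom put Aldh1l2 at 0.0018 for pregnancy on the control diet. With 1 library left out, values for pregnancy on the control diet ran from -0.18 to 0.21 for Aldh1l2, -0.19 to 0.22 for Mthfd1l, -0.097 to 0.049 for Psph, -0.15 to 0.065 for Shmt1 and -0.060 to 0.023 for Shmt2. For diet in nonpregnant hearts they ran from -0.12 to 0.29 for Aldh1l2, -0.17 to 0.043 for Shmt1 and -0.051 to 0.031 for Shmt2. In the untested ones the interaction also changed sign under some alternative for Aldh1l2, Asns, Mthfd1l, Phgdh and Psph, and the postpartum diet difference for Mthfd1. The fewest counts per library behind an enzyme were 23 to 84 for Phgdh and 37 to 89 for Mthfd1l.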
